A study of Mus musculus with 16 samples.

Results

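Deletions of 5 to 10 bp were examined in 16 amplicon libraries of 1 meiotic hotspot on mouse chromosome 1. A deletion belonged to the set when the files listed 5 to 10 deleted bases and an aligned sequence as long as the amplicon. Rows of a library that shared length and left-most start were merged into 1 distinct deletion. This gave 286 distinct deletions, counted library by library, of 5772 of any listed length (4.95%). They held 519 of 107192 listed deletion reads (0.484%). Counted once over all libraries, 182 different deletions were present. The members were chosen by their listed length alone, so length is given here as a description. In the 77 of 504 rows that held no substitution, 71 distinct deletions were present of 2912 of any length (2.44%), and 41 of these were different.

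The DNA was isolated from suspensions of testis cells, labelled spermatocytes, of C57BL/6 mice 2 to 5 months old. The groups were Atm-/-, Atm+/-, Atm+/+ and Spo11-/-, each with 4 libraries, 1 for each of 4 overlapping amplicons. The whole suspension was taken from mutant testes and only part of it from wild-type testes. The sources used here give neither the animals per group, nor the genomes per PCR, nor the share of spermatocytes in a suspension. The 4 libraries of a genotype therefore differ in amplicon and may share their DNA, so p-values measure library spread only, which may be technical.

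Meiosis starts with double-strand breaks cut by the enzyme SPO11, and a hotspot is a place it cuts often. ATM is a kinase that is activated by breaks and limits how many SPO11 makes. Germ cells without SPO11 make no programmed meiotic breaks, and spermatocytes of both null genotypes are known to arrest before the end of meiosis. End joining after a break can leave a deletion, and its junction often shows microhomology, a few bases that were present on both sides. Polymerase slippage during replication or PCR can also remove bases between short repeats.

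The sequences below show the deletions on which the results turn. They are read from the deposited alignments in the direction of increasing chromosome 1 coordinates (mm10), with 10 bases on each side. Capitals mark the deleted bases in the left-most placement. Coordinates follow the files, and with no genome sequence at hand it is unknown whether they count from 0 or 1. The first set shows some of the 13 deletions found in 4 or more libraries, and each one shown was followed by bases that repeat its own start. Those not shown had 0 to 4 bp of microhomology, with 1 bp for the 5 bp deletion at 33764964, found in 9 libraries.
5 bp, 33765099 to 33765103, shown chr1:33765089-33765113: ctcagatcccTGCCGtgccagggga
7 bp, 33765072 to 33765078, shown chr1:33765062-33765088: ggtgtaacggAGAAGGAaggaggaggg
7 bp, 33765075 to 33765081, shown chr1:33765065-33765091: gtaacggagaAGGAAGGaggagggctc
5 bp, 33764960 to 33764964, shown chr1:33764950-33764974: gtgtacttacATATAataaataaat
7 bp, 33764962 to 33764968, shown chr1:33764952-33764978: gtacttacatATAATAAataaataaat

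The second set holds the 4 substitution-free deletions that started in the 1 window of 50 bp that passed the test between genotypes. All of them were found in Atm-/- libraries alone, and the window is shown because it passed that test. Of the 41 different substitution-free deletions, 32 were in 1 genotype only. Over all reads, the other genotypes held 10 deletions in this window.
8 bp, 33765000 to 33765007, shown chr1:33764990-33765017: agaagcagtaATGCCATCacaacgtgag
8 bp, 33765012 to 33765019, shown chr1:33765002-33765029: gccatcacaaCGTGAGGGctgtattaaa
6 bp, 33765019 to 33765024, shown chr1:33765009-33765034: caacgtgaggGCTGTAttaaagggca
6 bp, 33765036 to 33765041, shown chr1:33765026-33765051: taaagggcagCAGCACcagggaagga

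The libraries covered 33764688 to 33765556, a stretch of 869 bp inside the zinc finger gene Zfp451 (gene ID 98403, 33761541 to 33815602). Exons and introns were not analysed here. Depth was 2.92 to 5.33 in units of 1e6 reads, so that 1 distinct deletion corresponded to 0.187 to 0.343 per 1e6 reads. Of the 286 distinct deletions, 214 (74.8%) rested on 1 read, and the highest count was 23 reads. Rows held a median of 3 substitutions beside the deletion, and 129 of 504 rows held an undetermined base. Of those 129 rows, 126 had an end of the deletion within 20 bp of the amplicon centre, the zone called near the centre here.

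These reads were unevenly spread over 4 submission sets, which were inferred from suffixes in the description labels. The sets do not cross the genotypes freely. The first set is all 4 Atm-/- libraries. The second holds Atm+/+ amplicons 1 and 2 and Atm+/- amplicons 3 and 4, and the third and the fourth hold the remaining 8. Rows with an undetermined base made up 46 of 124 for Atm-/-, 83 of 220 in the second set and 0 of 160 in the third and the fourth. The second set had 5.77 ± 1.19 distinct deletions of 5 to 10 bp per 1e6 reads (SD, n = 4), and the third and the fourth had 3.59 ± 1.63 (SD, n = 8). In substitution-free reads the order was the other way, 0.972 ± 0.319 against 1.46 ± 0.586. The Atm-/- genotype and the first set cannot be told apart.

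Loss of ATM was first compared with the other genotypes for the rate of deletions of this length. Atm-/- libraries held 4.71, 5.86, 6.46 and 3.09 distinct deletions per 1e6 reads in amplicons 1 to 4. Atm+/- libraries held 3.87, 6.19, 7.12 and 5.10, and Atm+/+ libraries 4.51, 6.36, 3.87 and 2.15. The Spo11-/- libraries, from mice without meiotic breaks, held 2.10, 5.14, 4.01 and 1.40. The ranges of all 4 genotypes overlapped, and amplicons 2 and 3 gave higher values than amplicon 4 in each of them. Amplicon 4 starts at 33764983, past most of the window from 33764938 to 33764987, which held 69 of the 286 deletions. Rates were not corrected for the sequence covered, and what this adds was not tested.

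**Figure D1:**
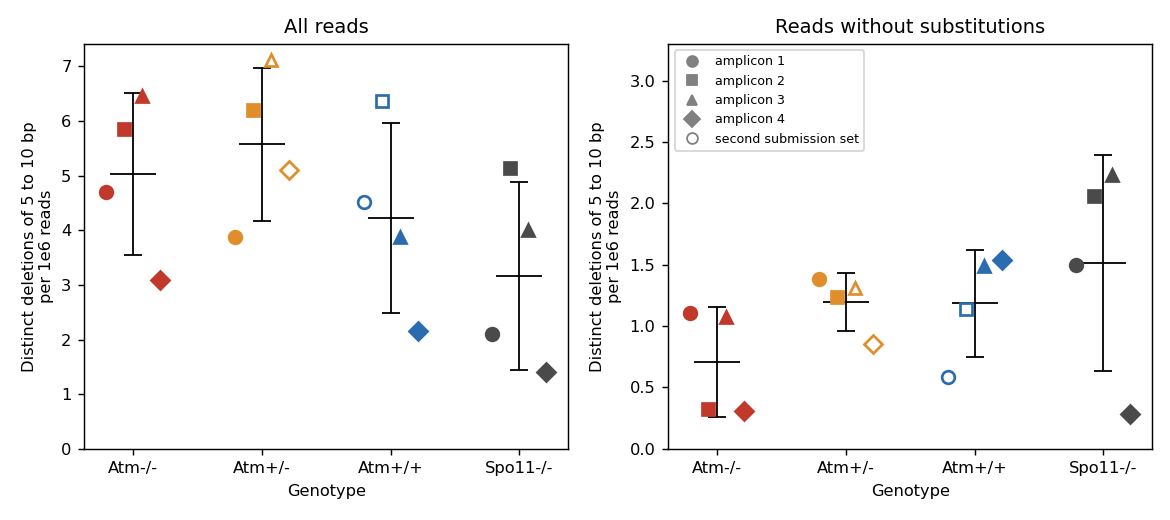
Distinct deletions of 5 to 10 bp per 1e6 reads (vertical axis) in each library by genotype, over all reads (left) and over reads without substitutions (right), with symbols for amplicons 1 to 4, open symbols for the second submission set, and bars for the mean and SD (n = 4). Over all reads the genotypes overlap and Spo11-/- has the lowest mean (3.16), whereas over reads without substitutions Atm-/- has the lowest mean (0.705).

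The means were 5.03 ± 1.49 for Atm-/-, 5.57 ± 1.40 for Atm+/-, 4.22 ± 1.74 for Atm+/+ and 3.16 ± 1.72 for Spo11-/- (SD, n = 4 each), from 69, 101, 71 and 45 deletions. Atm-/- exceeded the other 3 genotypes by 0.30 on the log2 scale, a ratio of 1.23 (two-sided exact permutation within amplicons, p = 0.324). It was the highest library in 1 of 4 amplicons, and the differences within single amplicons ran from 0.0019 to 0.48. Counted in reads, the rates were 9.18 ± 3.19, 9.08 ± 2.51, 8.91 ± 4.14 and 5.02 ± 2.18 per 1e6 reads in the same order of genotypes, and the ratio was 1.26 (exact permutation p = 0.379). Neither difference was larger than the spread between libraries.

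Leaving out the second submission set brought both differences past the threshold, with ratios of 1.47 for distinct deletions (exact permutation p = 0.0494) and 1.63 for reads (exact permutation p = 0.0123, the smallest that 81 assignments allow). When reads with an undetermined base were left out as well, a choice made after the values were seen, the ratios were 1.25 (exact permutation p = 0.148) and 1.09 (exact permutation p = 0.605). Within the stretch that all 4 amplicons share, 33764983 to 33765262, the ratio of reads was 1.69 (exact permutation p = 0.0352).

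Spo11-/- had the lowest rate of the 3 remaining genotypes in 3 of 4 amplicons. Against Atm+/+ and Atm+/- together the difference was -0.69 on the log2 scale, a ratio of 0.620 (exact permutation p = 0.0617). Single amplicons ran from -1.17 to -0.27. The ratio was 0.754 without the second submission set, 0.798 in the stretch shared by all amplicons (exact permutation p = 0.333) and 0.876 with at least 2 reads per deletion (exact permutation p = 0.704). For deletions of 6 to 10 bp the ratio was 0.476 (exact permutation p = 0.0123, the smallest possible), and for deletions in no other genotype of the amplicon it was 0.470 (exact permutation p = 0.0370). It was 0.692 without reads that held an undetermined base (exact permutation p = 0.0370), and those reads were absent from the Spo11-/- libraries. Without amplicon 3 the ratio was 0.578 (exact permutation p = 0.0370). Atm+/- and Atm+/+ differed by 0.45 (exact permutation p = 0.500), a test that cannot reach 0.05 with 16 sign patterns.

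Substitution-free reads gave a different order of genotypes. Atm-/- held 1.11, 0.325, 1.08 and 0.309 distinct deletions per 1e6 reads in amplicons 1 to 4, from 4, 1, 4 and 1 deletions. The other 12 libraries ran from 0.280 to 2.23 with a median of 1.35. The means were 0.705 ± 0.448 for Atm-/-, 1.20 ± 0.238 for Atm+/-, 1.19 ± 0.437 for Atm+/+ and 1.52 ± 0.881 for Spo11-/- (SD, n = 4 each). Amplicons 2 and 4 of Atm-/- were low, and amplicon 4 of Spo11-/- was the lowest of all 16 libraries. The difference of Atm-/- from the other 3 genotypes was -0.77 on the log2 scale, a ratio of 0.587 (exact permutation p = 0.0625). It passed the threshold without amplicon 1 (ratio 0.485, exact permutation p = 0.0469).

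In reads the same comparison passed the test. Substitution-free reads with a deletion of 5 to 10 bp numbered 12 for Atm-/-, 28 for Atm+/-, 26 for Atm+/+ and 24 for Spo11-/-. Per 1e6 reads they made up 0.841 ± 0.605, 1.61 ± 0.585, 1.66 ± 0.320 and 1.64 ± 0.821 (SD, n = 4 each). Atm-/- was lower than the other 3 genotypes by a difference of -0.98 on the log2 scale, a ratio of 0.508, and the lowest library in 3 of 4 amplicons (exact permutation p = 0.0078). All substitution-free rates divide by all reads of a library, with or without substitutions. Distinct substitution-free deletions of 2 to 4 bp were also fewer, 37.5 ± 0.849 per 1e6 reads in Atm-/- against 43.7 ± 5.78 in the others. The ratio to that class is given below. For deletions of 6 to 10 bp the direction turned, with a difference of 0.081 and a ratio of 1.06 (exact permutation p = 0.898). Without amplicon 2 the ratio was 0.638 (exact permutation p = 0.0938). Without ends near the amplicon centre it was 0.769 (exact permutation p = 0.555), and in the stretch common to all amplicons 0.954 (exact permutation p = 0.910). Spo11-/- and the Atm+/+ and Atm+/- pair differed by 0.12 in distinct deletions (exact permutation p = 0.802), and single amplicons ran from -1.60 to 0.77.

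The class was then set against its neighbours in length within each library, so that no division by depth was needed. Counts of distinct deletions need not grow alike with depth in classes with unlike reads per deletion. Deletions of 11 bp or more occurred at 34.8 ± 4.52 per 1e6 reads in Atm-/- and at 7.25 ± 6.17 among the other 12 libraries. Among those 12, the second submission set had 15.2 ± 3.02 (SD, n = 4), and the third and the fourth had 3.26 ± 1.19 (SD, n = 8). The ratio of deletions of 5 to 10 bp to these longer ones had a log2 difference of -2.40 between Atm-/- and the others, and Atm-/- was lowest in 4 of 4 amplicons (exact permutation p = 0.0039, the smallest possible). In substitution-free reads the difference was -3.47 (exact permutation p = 0.0039). The difference between Atm-/- and the other libraries was therefore unlike for this class and the longer class in both kinds of reads. Genotype and first submission set cannot be told apart in it. The difference of this class was not separated from that of deletions of 2 to 4 bp. Those occurred at 70.9 ± 2.78 per 1e6 reads for Atm-/- and 75.6 ± 8.14 for the others. The log2 difference in the ratio of 5 to 10 bp to 2 to 4 bp was 0.38 (exact permutation p = 0.176) over all reads and -0.56 (exact permutation p = 0.207) in substitution-free reads. Without the second submission set, the first of these was 0.61 (exact permutation p = 0.0123), and without amplicon 4 it was 0.42 (exact permutation p = 0.0312). It was 0.62 (exact permutation p = 0.0078) in the stretch shared by all amplicons.

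The distinct deletions numbered 102 at 5 bp, 47 at 6 bp, 70 at 7 bp, 30 at 8 bp, 18 at 9 bp and 19 at 10 bp. Just outside the set there were 401 at 4 bp and 20 at 11 bp. In reads the step at the lower edge was steeper, with 63608 reads at 4 bp against 212 at 5 bp, while 10 bp and 11 bp had 34 and 24. In substitution-free reads the counts were 41, 7, 11, 8, 2 and 2 from 5 to 10 bp, with 143 at 4 bp and 5 at 11 bp. Deletions of 7 bp outnumbered those of 6 bp in both kinds of reads.

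**Figure D2:**
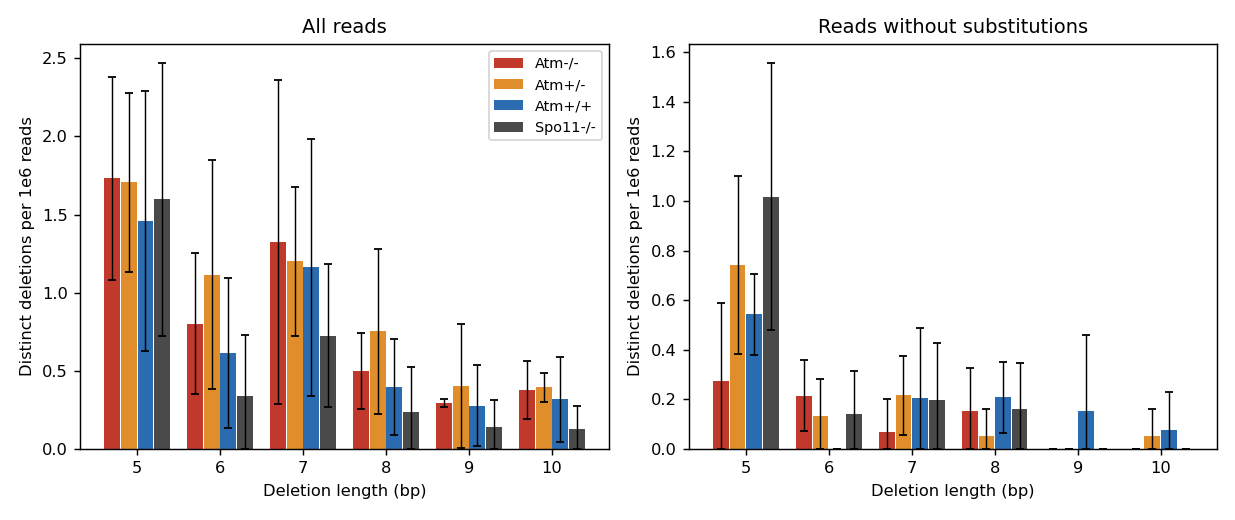
Distinct deletions per 1e6 reads (vertical axis) by deletion length in bp, as means of 4 libraries per genotype with SD, over all reads (left) and reads without substitutions (right). The right panel shows the difference at 5 bp, where Atm-/- has 0.273 and Spo11-/- 1.02 per 1e6 reads.

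Over all reads, 0 of the 6 lengths differed between Atm-/- and the other 3 genotypes by the blocked exact permutation test, after Benjamini-Hochberg adjustment and before it. In substitution-free reads 1 of 6 did, 5 bp. There Atm-/- held 2, 0, 2 and 0 deletions of 5 bp in amplicons 1 to 4, Atm+/- 3, 4, 5 and 1, Atm+/+ 3, 3, 2 and 1, and Spo11-/- 4, 3, 7 and 1. Per 1e6 reads Atm-/- was the lowest in 4 of 4 amplicons, and on the log2(count + 0.5) scale of the test in 3 of 4, with 0.273 ± 0.315 per 1e6 reads against 0.743 ± 0.360 for Atm+/-, 0.543 ± 0.163 for Atm+/+ and 1.02 ± 0.539 for Spo11-/- (SD, n = 4 each). The ratio of Atm-/- to the others was 0.408 on the log2(count + 0.5) scale (exact permutation p = 0.0078, adjusted p = 0.0469). Without any 1 amplicon the ratio was 0.338 to 0.558 and the call was lost (adjusted exact permutation p of 0.0938 to 0.188), but with 64 assignments a single length cannot pass the adjustment over 6. The call was also lost without ends near the amplicon centre (ratio 0.500, adjusted exact permutation p = 0.270) and without the second submission set (ratio 0.366, adjusted exact permutation p = 0.0741), where 81 assignments do not allow a single length to pass either. Over all reads the 5 bp counts were 24 for Atm-/- and 78 in the other 12 libraries (ratio 1.17, exact permutation p = 0.344).

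Most of the 182 different deletions, 145 (79.7%), were seen in 1 library only. A further 37 were seen in 2 or more libraries, 13 in 4 or more, and 8 in all 4 genotypes. The deletion of 5 bp at 33765099 was present in 16 of 16 libraries. It held 82 reads, more than any other deletion of the set in each genotype. Reads in amplicons 1 to 4 were 3, 3, 7 and 3 for Atm-/-, 4, 3, 7 and 5 for Atm+/-, 5, 6, 9 and 7 for Atm+/+, and 7, 3, 7 and 3 for Spo11-/-. These correspond to 1.15 ± 0.491, 1.06 ± 0.235, 1.79 ± 0.765 and 1.38 ± 0.566 reads per 1e6 (SD, n = 4 each), and the ranges overlapped. In substitution-free reads it was present in 12 libraries of all 4 genotypes with 22 reads. Its 4 bases tgcc recur directly after the deletion, as the first sequence above shows.

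**Figure D3:**
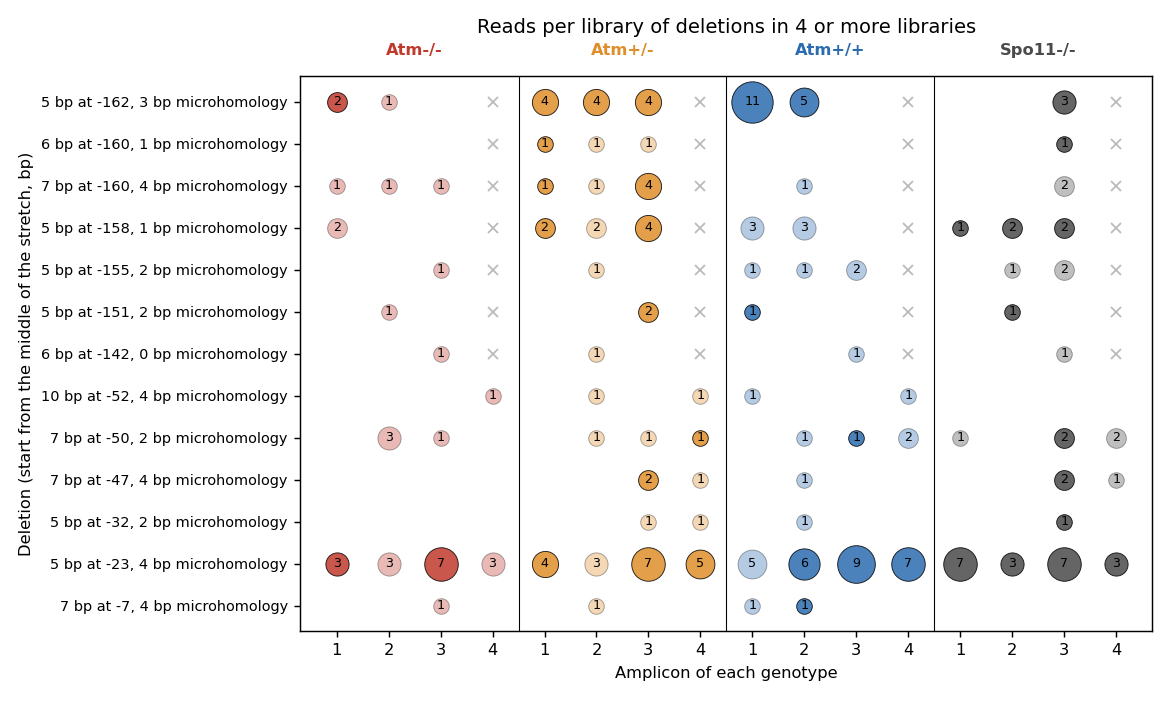
Reads in each of 16 libraries (columns, amplicons 1 to 4 of each genotype) for the 13 deletions present in 4 or more libraries (rows, with length, start as distance from the middle of the stretch in bp, and microhomology). Circle area grows with the reads, the number in each circle is the read count, pale circles have no read without substitutions, and a cross marks an amplicon that does not cover the deletion. The 5 bp deletion at -23 fills every column.

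The next most recurrent deletions lay in the same 2 short stretches, which were delimited after the values were seen as the places that hold all 13 deletions found in 4 or more libraries. The deletion of 7 bp at 33765072 was in 11 of 16 libraries with 16 reads, in 2 amplicons of Atm-/- and 3 of each other genotype. It removes part of a purine run and overlaps a deletion of 7 bp at 33765075 (5 libraries) and one of 10 bp at 33765070 (5 libraries). In the run of A and T repeats, deletions of 5 bp at 33764964 and 33764960 were in 9 and 8 of the 12 libraries that cover them, with 21 and 34 reads. A 7 bp deletion at 33764962 was in 8 of those 12 libraries with 12 reads. All 3 were found in each of the 4 genotypes. Overlapping members of such a run share their source sequence and are not independent of one another.

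The AT-rich stretch, 33764960 to 33764985, is 26 bp long (2.99% of the sequenced stretch) and 96.2% A or T. It held 57 of the 286 distinct deletions (19.9%). The second stretch, 33765070 to 33765125, is 56 bp long (6.44%), 33.9% A or T, and held 76 (26.6%). By genotype the AT-rich stretch held 17.4% of the deletions in Atm-/-, 20.8% for Atm+/-, 18.3% for Atm+/+ and 24.4% for Spo11-/-. The second stretch held 18.8%, 23.8%, 32.4% and 35.6% in the same order. All these shares count a recurrent deletion once per library, and the stretches were drawn around such deletions. Shares above their part of the length were therefore built in. With each different deletion counted once, the AT-rich stretch held 18 of 182 and the second 29. The deleted bases were 56.6% A or T over all reads with each deletion counted once, and 59.3% for deletions in 2 or more libraries. In substitution-free reads these values were 58.7% and 71.7%, and the whole stretch had 56.2%.

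Deletions of 1 genotype only were mostly of 1 library too. The share of a library's deletions found in no other genotype of the same amplicon was 66.3% ± 8.31 for Atm-/-, 71.6% ± 8.61 for Atm+/-, 65.4% ± 13.0 for Atm+/+ and 50.9% ± 15.2 for Spo11-/- (SD, n = 4 each). Atm-/- exceeded the others by 3.69 percentage points (exact permutation p = 0.660). With deletions of 1 read removed from each library first, the difference was 35.3 points (exact permutation p = 0.0312). A deletion with 1 read in another genotype then counted as absent there, so this is not the same share. Of the deletions in Atm-/- alone, 2 were found in 2 amplicons each, the 6 bp deletion at 33765036 with 3 reads and a 7 bp deletion at 33765070 with 2. Deletions of 1 genotype in 2 or more amplicons numbered 4 for Atm+/-, 0 for Atm+/+ and 2 for Spo11-/-. The deletion with the most reads in Atm-/- alone, 8 bp at 33765215, had 11 reads in 1 library. Each of its 11 rows held an undetermined base, the median was 84 substitutions, and it ended near the amplicon centre.

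Junctions of these deletions had more microhomology than the different products possible at the same lengths over the whole stretch. Microhomology was measured as the number of positions by which a deletion could be shifted without changing the product. Placements with the same product were counted once, which left 647 at 5 bp over the stretch of 869 bp. A product with microhomology can arise from more starts than one without. Shares over all single starts would therefore be higher than those given here, and they were not computed. At least 2 bp were present in 54 of 182 different deletions (29.7%, exact Clopper-Pearson 95% interval 23.1% to 36.9%), against 7.51% of placements counted in this way. At least 4 bp were present in 14 (7.69%, interval 4.27% to 12.6%), against 0.507%. In substitution-free reads 20 of 41 had at least 2 bp (48.8%, interval 32.9% to 64.9%), against 7.56%, and 8 had at least 4 bp (19.5%), against 0.446%. The longest was 7 bp, and 1 deletion was the loss of a whole repeat unit. These intervals cover counting error only, since overlapping deletions in a repeat are not independent and PCR reads without molecular identifiers are not separate molecules.

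**Figure D4:**
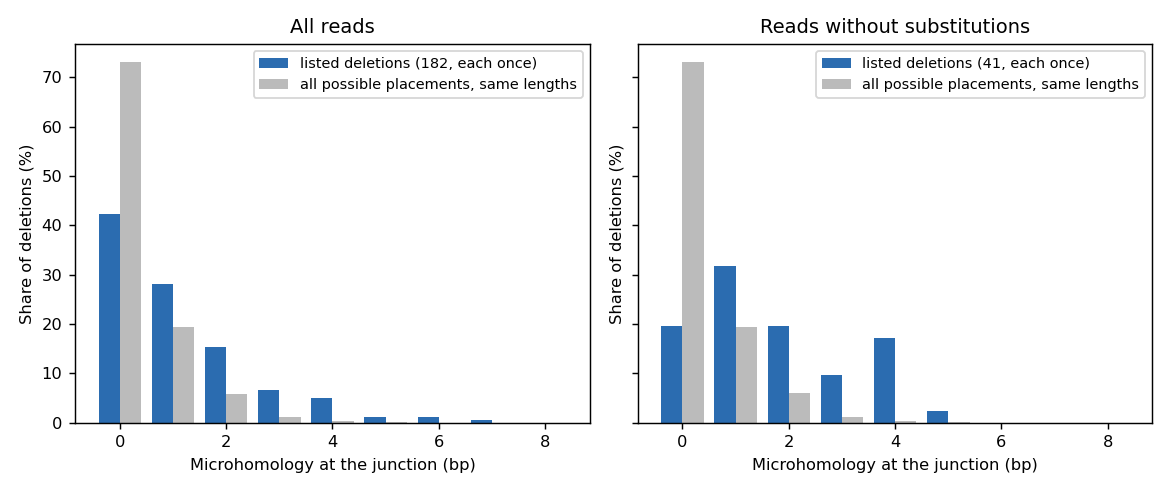
Share of deletions in percent (vertical axis) by microhomology at the junction in bp, for the listed deletions counted once (blue) and for all possible placements of the same lengths in the sequenced stretch (grey), over all reads (left, 182 deletions) and reads without substitutions (right, 41). Placements with the same product are counted once. Against these, listed deletions are higher at each microhomology from 1 to 4 bp and lower at 0 bp.

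Recurrent deletions carried more of it. At least 2 bp were present in 24 of the 37 deletions found in 2 or more libraries (64.9%, interval 47.5% to 79.8%) and in 30 of the 145 found in 1 (20.7%, interval 14.4% to 28.2%). Both shares stood above the 7.37% and 7.55% of possible products of matched length, each counted once. Neither was compared with shares over all single starts, which would be higher. For the deletions found in 1 library, an excess over single starts is therefore not shown. Merging by left-most start joins more starts for a product with microhomology. What this adds to either share, or to the contrast between them, was not tested. By length, the share was 32.7% of 52 different deletions at 5 bp, 45.5% of 33 at 6 bp, 33.3% of 39 at 7 bp, 2 of 25 at 8 bp, 22.2% of 18 at 9 bp and 20.0% of 15 at 10 bp. The 8 bp class was close to its possible products (9.57%). A member with long microhomology was the deletion at 33765125, in which 5 bases recur after the deletion. It was found without substitutions in 1 Atm+/- and 1 Atm+/+ library.

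The genotypes were not separated in microhomology. At least 2 bp were present in 31 of 69 deletions in Atm-/- (44.9%), 46 of 101 for Atm+/- (45.5%), 35 of 71 for Atm+/+ (49.3%) and 21 of 45 for Spo11-/- (46.7%). These counts take a recurrent deletion once per library, which raises them above the shares given for different deletions. The mean share per library in Atm-/- differed from the others by -3.98 percentage points (exact permutation p = 0.406), and by -0.34 points in substitution-free reads (exact permutation p = 0.992). Over all reads, Atm-/- libraries ran from 40.0% to 50.0% and the other 12 from 36.8% to 64.3%. In substitution-free reads, where amplicons 2 and 4 of Atm-/- held 1 deletion each, the values ran from 0% to 100% in Atm-/-, so a difference could not be resolved at this depth.

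Along the stretch, the 50-bp window from 33764938 to 33764987 held 69 of 286 deletions (24.1%) and had the highest rate in each genotype, 1.44 per 1e6 reads in Atm-/-, 1.85 for Atm+/-, 1.48 for Atm+/+ and 1.02 for Spo11-/-, over the 3 amplicons that span it. The window from 33765038 to 33765087 held 57 and the next one, to 33765137, held 42, with 6 for Atm-/-, 13 for Atm+/-, 14 for Atm+/+ and 9 for Spo11-/-. No other window held more than 20. Several outer windows, covered by 1 or 2 amplicons, had no deletion in at least 1 genotype.

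**Figure D5:**
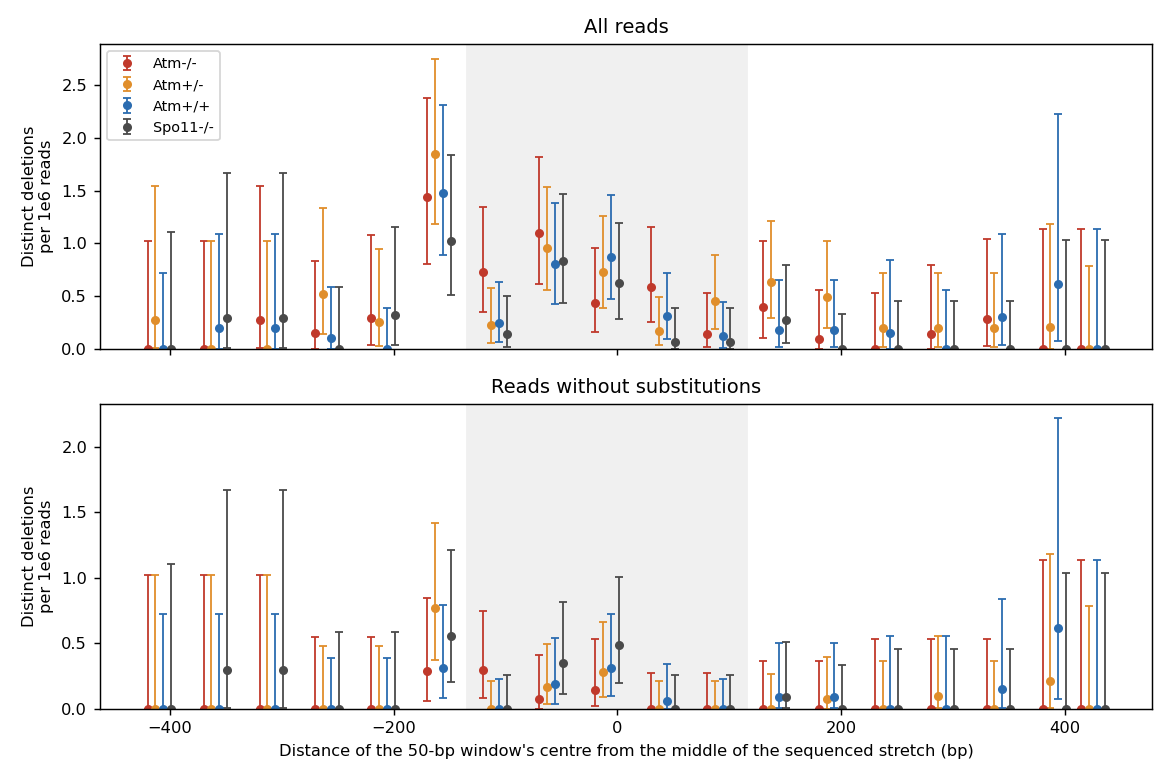
Distinct deletions of 5 to 10 bp per 1e6 reads (vertical axis) in 50-bp windows along the sequenced stretch, as distance from its middle in bp, by genotype, with exact Poisson 95% intervals on the summed counts, over all reads (top) and reads without substitutions (bottom). The grey band marks the 5 windows that lie in all 4 amplicons; in the first of these Atm-/- holds 10 of 20 deletions in the top panel and 4 of 4 in the bottom panel.

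Of the 5 windows that lie in all 4 amplicons, 1 passed the test in substitution-free reads, 33764988 to 33765037. In substitution-free reads Atm-/- held 2, 1, 0 and 1 distinct deletions there in amplicons 1 to 4, and the other 12 libraries held 0. The rate was 0.293 per 1e6 reads in Atm-/- (exact Poisson 95% interval 0.0799 to 0.751). Taken as measured, it was at least 4.70-fold higher than in the other 12 libraries, with 3 counts over all 12 as their upper limit. The lower end of the interval was 1.28-fold above that limit. The fitted ratio, which depends on the pseudocount, was 3.00 on the log2(count + 0.5) scale (exact permutation p = 0.0078, adjusted p = 0.0391). The Atm-/- library led in 3 of 4 amplicons. On the same scale the window from 33765188 to 33765237, with 0 substitution-free deletions in any library, had a fitted ratio of 1.16. The 4 deletions are those of the second set of sequences, of 6 and 8 bp, each with 1 substitution-free read. Their microhomology was 1, 1, 0 and 3 bp. None had an end near the amplicon centre or a row with an undetermined base.

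Over all reads the same window held 5, 2, 2 and 1 deletions in Atm-/- amplicons 1 to 4 and 10 in the other 12 libraries together, of which 4 each were in Atm+/- and Atm+/+ and 2 in Spo11-/-. The ratio was 3.11 and the Atm-/- library led in 4 of 4 amplicons on the log2(count + 0.5) scale, but by rate in 3 of 4, with an exact permutation p of 0.0156 and an adjusted p of 0.0781, so that 0 of 5 windows passed and 1 had an unadjusted p under 0.05. Without reads that held an undetermined base, 8 deletions in Atm-/- stood against 8 in the others and the window passed (ratio 2.98, adjusted exact permutation p = 0.0195). In substitution-free reads the ratio without any 1 amplicon was 2.46 to 4.12 and the call was lost (adjusted exact permutation p of 0.0781 to 0.156), where a single window cannot pass the adjustment over 5. It was also lost without the second submission set (ratio 2.70, adjusted exact permutation p = 0.0617), where a single window cannot pass either. The window from 33765138 to 33765187 held 8 deletions in Atm-/- and 9 in the others over all reads, and the Atm-/- library led in 3 of 4 amplicons (ratio 2.25, exact permutation p = 0.121, adjusted p = 0.202). Without amplicon 2 this window (ratio 3.73) and 33764988 to 33765037 (ratio 3.18) both passed over all reads, each with an adjusted exact permutation p of 0.0391. In the window from 33765088 to 33765137, which holds the 5 bp deletion present in every library, Atm-/- had 6 deletions and the others 36, the lowest ratio of the 5 windows (0.685, exact permutation p = 0.0625, adjusted p = 0.156).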

How the data were processed

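Amplicon libraries of testicular DNA (4 genotypes, 4 amplicons each) were analysed from 16 deposited tables of distinct aligned sequences with 1 deletion. Per the file headers, the authors deposited for each sequence a whole-number read count, not normalized, and its percent of all reads of the library. Their quotient gave the depth. The column layout is that of CRISPResso, whose version the sources used here do not give. Per the submitters' processing notes, coordinates are on mm10.

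Of 73567 rows, 25 were left out because their length differed from the amplicon's, none of them of 5 to 10 bp. The amplicon was rebuilt from the commonest base at each position (at least 93.3% of determined bases at positions outside the 20 bp at either end). Deletions were moved to the left-most placement and merged by start and length. Rates were compared as log2 of (count + 0.5) per 1e6 reads, and a ratio is 2 to the power of a difference of mean log2 values. Genotypes were exchanged only within an amplicon, the replicate number, since the design shares the amplicons: 256 assignments for Atm-/- against the other 3 genotypes, 81 for Spo11-/- against Atm+/+ and Atm+/-. All tests were two-sided, at 0.05. Lengths (6) and windows of 50 bp (5) were adjusted by Benjamini-Hochberg within each family. Window rates use only amplicons that span the window. A percent was tested only where each library held a deletion.

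The members, lists and tests were chosen with earlier results of these data known. Deletions named were the most recurrent of each length and those with the most reads in each genotype. Also named were the most read ones of 1 genotype without substitutions, the longest microhomology among those in 4 or more libraries, and those in Atm-/- alone in the most amplicons. Those in 4 or more libraries, and in the window that passed, were added after values were seen. The scripts were tested on simulated data (Python 3.11.15, numpy 2.4.6, scipy 1.17.1, pandas 2.3.3). Alternatives, 22 in all, are in the closing section.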

Additional observations from a re-analysis of the deposited data

Results flagged for a closer look

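In each group of 4 libraries, the highest or lowest was compared with the rest by Dixon's gap test, over 32 groups of values, and chance flags about 1 in 20 groups. All 3 values found rest on few substitution-free deletions. In Atm+/+ amplicon 1, substitution-free reads with a deletion of 5 to 10 bp made up 1.18 per 1e6 reads, below 1.79 to 1.84 in the other 3 amplicons. In Atm+/+ amplicon 4, 20.0% of 5 substitution-free deletions had at least 2 bp of microhomology, below 60.0% to 66.7% in the others. In Atm-/- amplicon 1, 25.0% of 4 substitution-free deletions ended within 20 bp of the amplicon centre, against 0% in the other 3.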

How the results depend on the processing

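Across 22 alternatives, 2 of them chosen after the values were seen, 377 values were computed for 19 results, and 294 kept their direction and their side of the threshold. The ratio of 5 to 10 bp to 11 bp or more kept both under every alternative run (log2 -3.23 to -1.85 over all reads, -3.87 to -2.58 in substitution-free reads). Most deletions rest on 1 read and substitution-free counts are 1 to 10 per library, so small differences cannot be resolved. Causes of the changes below were not tested. Values are log2 differences unless stated.

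Over all reads, without the second submission set, Atm-/- exceeded the others by 0.56 in distinct deletions, 0.70 in reads and 0.61 in the ratio to 2 to 4 bp, each past the threshold. In the stretch shared by all amplicons the last of these was 0.62 and the difference in reads 0.76, both past it. For deletions in 1 genotype of the amplicon the ratio to 2 to 4 bp differed by 1.19. The difference in reads turned to -0.0091 without undetermined bases and -0.023 without ends near the amplicon centre. Spo11-/- fell past the threshold with -0.68 without the outer 25 bp, -1.07 at 6 to 10 bp, -1.09 for deletions in 1 genotype and -0.53 without undetermined bases. Atm+/- against Atm+/+ turned to -1.24 with at least 5 reads. The difference in microhomology turned to 1.51 points without undetermined bases and 2.59 points with the second set also left out. That in deletions of no other genotype was 35.3 points with at least 2 reads, where a deletion with 1 read in another genotype counted as absent there.

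In substitution-free reads, the Atm-/- difference in distinct deletions passed with file positions (-0.90) and thinning (-0.84) and turned to 0.12 at 6 to 10 bp and 0.030 in the shared stretch. The difference in reads was 0.081 at 6 to 10 bp. It lost the threshold with at least 2 reads (-0.72), without ends near the centre (-0.38), with these and the second set left out (-0.76), for deletions in 1 genotype (-0.34) and in the shared stretch (-0.069). The ratio to 2 to 4 bp turned to 0.11 with at least 2 reads, 0.33 at 6 to 10 bp, 0.47 for deletions in 1 genotype and 0.18 in the shared stretch. Spo11-/- turned to -0.60 with at least 2 reads, -0.13 at 6 to 10 bp, -0.12 for deletions in 1 genotype and -0.069 with file positions. It was -0.17 with a further block for the submission set, without the second set, and without undetermined bases as well. Atm+/- against Atm+/+ turned to -0.051 with at least 2 reads, -0.032 without the outer 25 bp and -0.023 for deletions in 1 genotype. Microhomology turned to 4.17 points without the second set, with or without undetermined bases.

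The design has the amplicon, which is the replicate number, as a block, and without the replicate block 1 window passed over all reads and 0 lengths in substitution-free reads; no other call changed. Windows that passed over all reads numbered 1 with pseudocount 1, with at least 2 reads, at 6 to 10 bp, without undetermined bases and without ends near the centre, and it was 33764988 to 33765037 each time. In substitution-free reads 0 windows passed with at least 2 reads, file positions, thinning or without the second set, alone or with either further exclusion. The count of lengths was 0 with at least 2 reads, at 6 to 10 bp, without ends near the centre, for deletions in 1 genotype, in the shared stretch and without the second set, alone or with either further exclusion.

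Leaving out each amplicon in turn gave, in substitution-free reads, -1.04 to -0.47 for distinct deletions and -1.25 to -0.65 for reads in Atm-/-, -0.094 to 0.70 in Spo11-/-, -0.31 to 0.35 for Atm+/- against Atm+/+, -12.1 to 20.3 points of microhomology, and 0 to 0 lengths and windows. Over all reads it gave -0.83 to -0.53 in Spo11-/-, 0.32 to 0.46 for the ratio to 2 to 4 bp, -1.0 to 7.61 points for deletions in no other genotype, and 0 to 2 windows. Not run, or without a value, were at least 5 reads in substitution-free reads and for percentages, the set block for Atm-/-, thinning for reads and the share in no other genotype, and Atm+/- against Atm+/+ without the second set. In substitution-free reads, microhomology also had no value where a library was left without a deletion.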
